A study of Mus musculus with 6 samples.

Results

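The integrated stress response genes described here are 10 genes of the mouse, found by symbol in a table of 54929 rows of read counts: the transcription factors Atf4, Ddit3, Atf5 and Atf3, the feedback regulators Ppp1r15a and Trib3, the amino acid synthesis enzymes Asns and Psat1, and the secreted stress cytokines Gdf15 and Fgf21. Their RNA was measured by mRNA sequencing in the left ventricle of wild-type (WT) C57BL/6 mice that had all undergone transverse aortic constriction (TAC), an operation that narrows the aorta and puts the ventricle under pressure overload. In the anti-PD-1 group (3 libraries) the mice received an antibody against the T cell inhibitory receptor PD-1, and in the anti-IgG group (3 libraries) a control antibody, each at 10 mg/kg into the peritoneum every 3 days from day 14, with a labelled time of 5 weeks. Hearts without TAC were not analysed here, so the values compare 2 antibodies in pressure-overloaded hearts. The labels used here do not state sex or age, nor that each library came from its own animal. Values given below for hearts, and n, therefore refer to libraries, and p-values measure only how these libraries vary.

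The integrated stress response begins when a kinase that senses amino acid shortage, unfolded protein, haem shortage or double-stranded RNA phosphorylates the translation factor eIF2. General translation then falls, while a few mRNAs with short upstream reading frames, Atf4, Atf5, Ddit3 and Ppp1r15a among them, are translated more. ATF4 protein switches on genes for amino acid supply, Trib3, Ddit3 and, in heart and skeletal muscle under mitochondrial stress, Fgf21 and Gdf15. RNA levels show the transcript side of this pathway only, since phosphorylation of eIF2 and translation of Atf4 were not measured.

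With anti-PD-1, Ddit3 was the 1 gene of the 10 that passed the test: it was 2.09-fold lower than with anti-IgG. None of the 10 was higher past the threshold, 8 did not pass and Fgf21 had too few reads to be tested. Counts were compared with edgeR's quasi-likelihood test (2-sided), and a gene passed when its Benjamini-Hochberg adjusted p over all 14807 tested genes was under 0.05. In this comparison 21.1% of all tested genes passed, 10.8% as lower and 10.3% as higher with anti-PD-1 (of the genes that passed, 48.9% were higher, and 36.8% with upper quartile scaling), so 1 of 9 is no more than the share of all genes. Of the 9 tested genes 4 had an unadjusted p under 0.05, namely Atf4, Ddit3, Atf5 and Ppp1r15a, against 36.9% of all tested genes at that unadjusted level. A log2 fold change below 0 was found for 6 of the 9. The median log2 fold change of the 9 was -0.55, against -0.030 for all tested genes, of which 51.9% were below 0. The genes are short, with a median gene length of 2154 bp against 4163 bp for all tested genes, and short genes as a class had lower fold changes (median log2 fold change -0.81 in the shortest 1481 genes). In whole ventricle, fewer cells of a type and less RNA per cell cannot be told apart.

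ATF4 binds as a dimer with C/EBP factors at a composite element, TGATGNAA, found in promoters of amino acid response genes. This element was searched on both strands of the window from 250 bases before to 50 after each annotated start (RefSeq, GRCm38.p6). It was present in 4 of the 10 genes, against 4.51% of the 27025 genes in the same table. The palindrome TGACGTCA, the site of cyclic AMP response element factors and of ATF dimers, was present in 1 of the 10, against 2.03% of all genes. The matching stretches are printed because they show which members carry the element in this window and how it is placed; each is read 5′ to 3′ along the gene's own strand, with the element in capitals. In Asns the element reads along the gene. In the other 3 genes with TGATGNAA it reads on the opposite strand, so that the capitals show its reverse complement. Distances are from the RefSeq start, which for some genes differs from the gene coordinates given below. By those coordinates the element printed for Trib3 lies before the gene, and those for Asns and Atf3 lie inside it.
Atf3 (chr1:191183425-191183454, minus strand, element 110 bases before the start): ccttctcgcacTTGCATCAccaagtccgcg
Trib3 (chr2:152344028-152344057, minus strand, element from base 15 after the start): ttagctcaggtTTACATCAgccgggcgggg
Asns (chr6:7693214-7693243, minus strand, element 23 bases before the start): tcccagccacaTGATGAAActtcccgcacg
Fgf21 (chr7:45615611-45615640, minus strand, element 139 bases before the start): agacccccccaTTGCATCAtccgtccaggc
Ppp1r15a (chr7:45526262-45526291, minus strand, TGACGTCA 12 bases before the start): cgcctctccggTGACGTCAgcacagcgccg
The other 5 genes, Atf4, Ddit3, Atf5, Psat1 and Gdf15, held neither string of letters in their windows. A match is a description of the letters only, and no binding was measured.

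Atf4 encodes the central transcription factor of the response. Atf4 (ENSMUSG00000042406, mm10 chr15:80255184-80257541, plus strand, 2358 bp of gene length) had 32.1, 49.6 and 61.4 CPM (reads relative to library size, scaled by TMM) in anti-PD-1 libraries 1, 2 and 3, against 51.3, 96.2 and 111.5 CPM in anti-IgG libraries 1, 2 and 3. Anti-IgG library 1 lay among the anti-PD-1 libraries, and the other two anti-IgG libraries lay above all of them. Atf4 averaged 47.7 ± 14.8 CPM in anti-PD-1 hearts and 86.3 ± 31.3 CPM in anti-IgG hearts (SD, n = 3 each), a log2 fold change of -0.85 (SE 0.31) that did not pass the test (edgeR adjusted p = 0.0749). Atf4 had 644 to 1279 reads with anti-PD-1 and 1001 to 2226 reads with anti-IgG, so counting error was small beside the spread between libraries. By DESeq2 Atf4 passed (adjusted p = 0.0318), and it also passed in edgeR without anti-IgG library 1 (log2 fold change -1.12, adjusted p = 0.0129). It was nearer to 0 without anti-PD-1 library 1 (-0.63, adjusted p = 0.218) and without anti-IgG library 3 (-0.62, adjusted p = 0.221).

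Ddit3 encodes CHOP, a factor induced by ATF4 that turns on growth arrest and death genes under prolonged stress. Ddit3 (ENSMUSG00000025408, chr10:127290774-127296288, plus strand, 1713 bp) had 5.78, 9.22 and 6.82 CPM in the 3 anti-PD-1 libraries, against 12.3, 15.4 and 17.9 CPM in the 3 anti-IgG libraries. All anti-PD-1 libraries were below all anti-IgG libraries. Ddit3 was the only one of the 9 tested members without overlap, a state found in 41.0% of all tested genes. The means were 7.27 ± 1.76 CPM in anti-PD-1 hearts and 15.2 ± 2.79 CPM in anti-IgG hearts (SD, n = 3 each), and the log2 fold change was -1.07 (SE 0.25, edgeR adjusted p = 0.0153). With each library left out in turn, the log2 fold change stayed between -1.25 and -0.92. Over these 6 fits the adjusted p (edgeR) ranged from 0.0101 to 0.0644. The call was lost on dropping anti-PD-1 library 1 (-0.92, adjusted p = 0.0644), anti-PD-1 library 3 (-1.01, adjusted p = 0.0512) or anti-IgG library 2 (-1.08, adjusted p = 0.0620). Calls over all tested genes also fell in these 3 fits, from 3118 to 969, 1766 and 532. They fell to 1564 without anti-IgG library 3, where Ddit3 still passed. Whether the loss was particular to Ddit3 was not tested. The Ddit3 call was also lost once a trend with gene length was removed (adjusted p = 0.120). A second row with the symbol Ddit3, a 105 bp entry for its upstream reading frame (ENSMUSG00000116429) that lies within the main gene, had 0 reads in all 6 libraries. All its 105 bp are shared with the main entry on the same strand, so the 0 does not show that no reads fell there. Ddit3 shares 68 bp with Mars on the other strand, and use of strand in counting is not stated, so reads there cannot be assigned to one of the 2 genes.

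Atf5 encodes a factor related to ATF4 that takes part in the mitochondrial unfolded protein response. Atf5 (ENSMUSG00000038539, chr7:44812256-44816658, minus strand, 1993 bp) had 37.4, 32.4 and 52.5 CPM in the anti-PD-1 libraries, against 50.7, 54.8 and 73.0 CPM in the anti-IgG libraries. Only anti-PD-1 library 3 reached into the anti-IgG values. The means were 40.8 ± 10.4 CPM in anti-PD-1 hearts and 59.5 ± 11.9 CPM in anti-IgG hearts (SD, n = 3 each), a log2 fold change of -0.55 (SE 0.22) that did not pass (edgeR adjusted p = 0.0978). With a library left out it ranged from -0.76 (without anti-PD-1 library 3) to -0.36 (without anti-IgG library 3), and the adjusted p from 0.0581 to 0.307. Atf5 shares 82 bp with Nup62 and with Il4i1 on the other strand, with the same limit on strand.

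Atf3 encodes a stress-induced factor of the same family that is also an early response gene. Atf3 (ENSMUSG00000026628, chr1:191170296-191218039, minus strand, 2154 bp) had 21.6, 12.8 and 12.9 CPM in anti-PD-1 hearts and 5.89, 9.96 and 21.0 CPM in anti-IgG hearts. The highest library of each group was nearly level, and the spread was wider among anti-IgG libraries. The means were 15.8 ± 5.08 CPM in anti-PD-1 hearts and 12.3 ± 7.81 CPM in anti-IgG hearts (SD, n = 3 each), and the log2 fold change was 0.36 (SE 0.42, edgeR adjusted p = 0.573). Single libraries moved it widely, to 0.071 when anti-PD-1 library 1 was left out, 0.028 when anti-IgG library 1 was, and 1.01 when anti-IgG library 3 was (adjusted p = 0.0807). Among the 4 factors Atf3 was the one with a log2 fold change above 0.

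**Figure D1:**
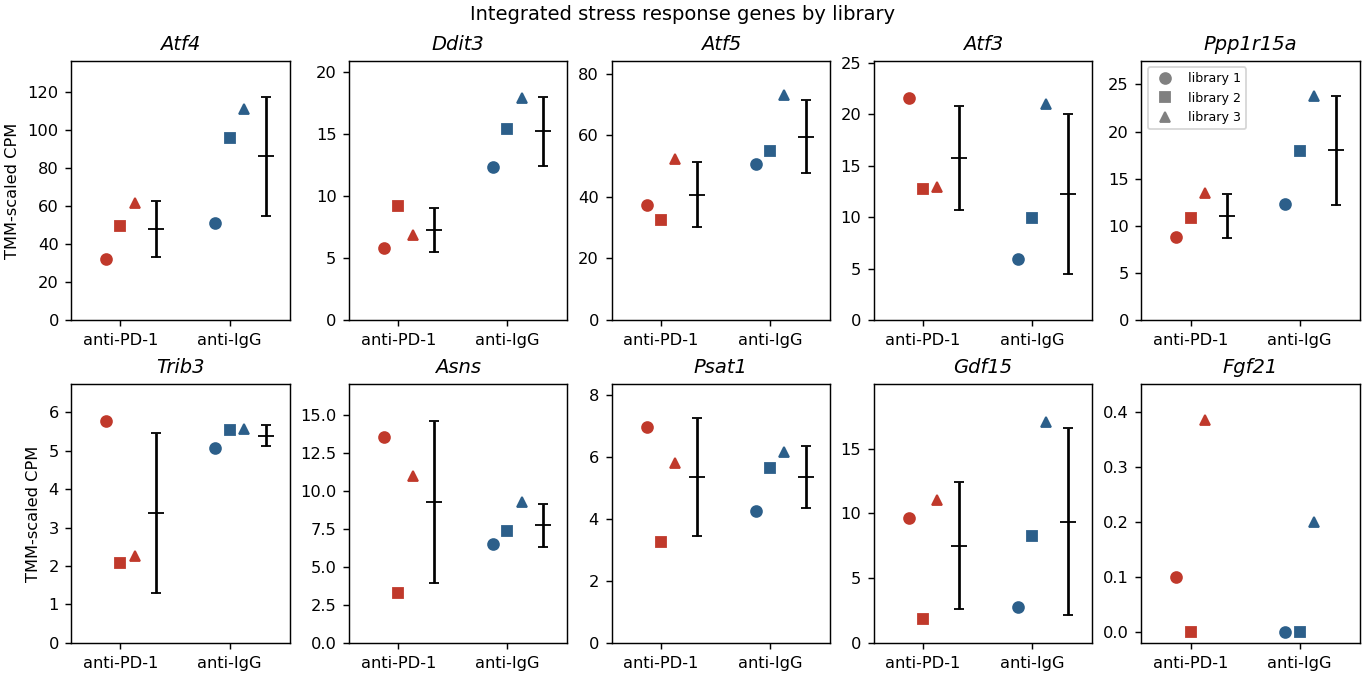
TMM-scaled CPM of each gene (vertical axes, from 0, separate scale per gene; the Fgf21 axis starts just below 0) in the 3 anti-PD-1 libraries (red) and the 3 anti-IgG libraries (blue), with symbols for library number and black bars for mean ± SD; Fgf21, with 0 to 8 reads a library, has no bar. Ddit3 alone shows no overlap, with 5.78 to 9.22 CPM for anti-PD-1 and 12.3 to 17.9 CPM for anti-IgG.

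The 2 feedback regulators act on different steps. Ppp1r15a encodes GADD34, which directs protein phosphatase to eIF2 and so restores translation. Ppp1r15a (ENSMUSG00000040435, chr7:45522916-45526268, minus strand, 2937 bp) had 8.82, 10.8 and 13.5 CPM in anti-PD-1 hearts and 12.3, 17.9 and 23.8 CPM in anti-IgG hearts. As for Atf4, anti-IgG library 1 lay among the anti-PD-1 values and the other anti-IgG libraries lay above them. The means were 11.0 ± 2.32 CPM in anti-PD-1 hearts and 18.0 ± 5.75 CPM in anti-IgG hearts (SD, n = 3 each), a log2 fold change of -0.71 (SE 0.27) that did not pass (edgeR adjusted p = 0.0786). Without anti-IgG library 1 it passed (-0.92, adjusted p = 0.0230), and without anti-IgG library 3 it stood at -0.45 (adjusted p = 0.272). Ppp1r15a shares 12 bp with Tulp2 on the other strand.

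Trib3 encodes a pseudokinase that ATF4 and CHOP induce and that holds back ATF4. Trib3 (ENSMUSG00000032715, chr2:152337422-152344032, minus strand, 2125 bp) had 5.78, 2.09 and 2.26 CPM in anti-PD-1 hearts and 5.07, 5.54 and 5.56 CPM in anti-IgG hearts. The anti-IgG libraries were almost level with one another, anti-PD-1 libraries 2 and 3 lay far below them and anti-PD-1 library 1 lay above them. The means were 3.38 ± 2.09 CPM in anti-PD-1 hearts and 5.39 ± 0.276 CPM in anti-IgG hearts (SD, n = 3 each), and the log2 fold change was -0.67 (SE 0.39, edgeR adjusted p = 0.232). Each anti-PD-1 library moved this value: it was -1.30 without library 1 (adjusted p = 0.0482), -0.40 without library 2 (adjusted p = 0.497) and -0.44 without library 3 (adjusted p = 0.499).

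Asns and Psat1 are the amino acid synthesis targets. Asns encodes asparagine synthetase, whose promoter is the classical amino acid response promoter and carries the element printed above. Asns (ENSMUSG00000029752, chr6:7675169-7693254, minus strand, 2735 bp) had 13.6, 3.27 and 11.0 CPM in anti-PD-1 hearts and 6.51, 7.38 and 9.26 CPM in anti-IgG hearts. The anti-IgG libraries all lay inside the span of the anti-PD-1 libraries, which differed 4.15-fold from lowest to highest. The means were 9.26 ± 5.35 CPM in anti-PD-1 hearts and 7.72 ± 1.41 CPM in anti-IgG hearts (SD, n = 3 each), and the log2 fold change stood at 0.26 with an SE of 0.43 (edgeR adjusted p = 0.691). The sign turned when anti-PD-1 library 1 was left out (-0.11), and over the 6 fits that each left out a library the adjusted p ranged from 0.0860 to 0.900.

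Psat1 encodes phosphoserine aminotransferase, a step of serine synthesis. Psat1 (ENSMUSG00000024640, chr19:15904678-15947337, minus strand, 4254 bp) had 6.98, 3.27 and 5.81 CPM in anti-PD-1 hearts and 4.25, 5.65 and 6.16 CPM in anti-IgG hearts. The groups covered much the same range. The means were 5.35 ± 1.90 CPM in anti-PD-1 hearts and 5.35 ± 0.988 CPM in anti-IgG hearts (SD, n = 3 each), and the log2 fold change was 0.0018 with an SE of 0.32 (edgeR adjusted p = 0.997), a precision that leaves room for differences of that size in either direction. The sign turned without anti-PD-1 library 1 (-0.23), without anti-PD-1 library 3 (-0.055) and without anti-IgG library 1 (-0.14).

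Gdf15 and Fgf21 encode hormones that stressed tissue releases, GDF15 acting through GFRAL in the hindbrain and FGF21 through FGF receptors with beta-klotho. Gdf15 (ENSMUSG00000038508, chr8:70629393-70632456, minus strand, 1852 bp) had 9.67, 1.88 and 11.0 CPM in anti-PD-1 hearts and 2.77, 8.28 and 17.1 CPM in anti-IgG hearts. Each group held a library several times below its others, so that Gdf15 differed 5.87-fold among anti-PD-1 libraries and 6.17-fold among anti-IgG libraries. The means were 7.52 ± 4.93 CPM in anti-PD-1 hearts and 9.37 ± 7.22 CPM in anti-IgG hearts (SD, n = 3 each), and the log2 fold change was -0.32 (SE 0.78, edgeR adjusted p = 0.805). Its sign hung on single libraries, with 0.16 without anti-PD-1 library 2 and 0.47 without anti-IgG library 3.

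Fgf21 (ENSMUSG00000030827, chr7:45613886-45615490, minus strand, 951 bp) was read 2, 0 and 8 times in anti-PD-1 libraries 1, 2 and 3 and 0, 0 and 4 times in anti-IgG libraries 1, 2 and 3, too few for the test. Summed over libraries, the 10 reads with anti-PD-1 and 4 reads with anti-IgG gave a ratio of read shares of 2.35, with an exact 95% interval of 0.678 to 10.3 that covers counting error only. A difference in Fgf21 was therefore not detectable at this depth. Albumin transcripts, a marker of liver, an organ that makes FGF21, numbered 25, 12 and 8 in the anti-PD-1 libraries, against 1752, 401 and 2 in the anti-IgG libraries. The part of liver RNA in the Fgf21 reads was not tested.

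Per length of gene (the authors' FPKM, mean over the 6 libraries), the members ran from Atf4 down to Fgf21. Atf4 (26.6 FPKM) and Atf5 (23.6 FPKM) were the most abundant, and their ranges over libraries overlapped. Next in order came Ddit3 (6.14 FPKM), Atf3 (6.12 FPKM), Ppp1r15a (4.62 FPKM), Gdf15 (4.29 FPKM), Asns (2.92 FPKM), Trib3 (1.93 FPKM) and Psat1 (1.18 FPKM). Within this row each gene overlapped its neighbour, while Atf5 and Ddit3 did not overlap (lowest Atf5 library 15.1 FPKM, highest Ddit3 library 9.77 FPKM). The ends of the row were apart, with the lowest Ddit3 library at 3.21 FPKM and the highest Psat1 library at 1.56 FPKM. Fgf21 was last, at 0 to 0.387 FPKM, below every library of Psat1 (0.713 to 1.56 FPKM).

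The course of the members across libraries was compared next. Each gene's log2 CPM (prior count 2) was centred on its mean over the 6 libraries, and pairs were compared by the root mean square difference, where 0 means the same course. Ppp1r15a was the member nearest to Atf4 (0.17), followed by Ddit3 (0.33) and Atf5 (0.36), while Ddit3 and Gdf15 were the farthest pair (1.21). Atf4, Ppp1r15a, Ddit3 and Atf5 share values below their means in anti-PD-1 libraries 1 and 2 and their highest value in anti-IgG library 3, but in anti-PD-1 library 3 Ddit3 (-0.60) and Atf5 (0.12) were on opposite sides of their means, and Atf5 was nearer to Psat1 (0.38) than to Ddit3 (0.43). Asns and Psat1, both enzymes of amino acid synthesis, lay near each other (0.32), both highest in anti-PD-1 library 1 and lowest in anti-PD-1 library 2. The points are only 6, and all pairs share the same libraries and depth, so these differences are descriptions.

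Anti-PD-1 library 1 divided the members: it was the highest of the 6 for 4 of 9 (Asns, Atf3, Psat1 and Trib3; 18.8% of all tested genes were highest there) and the lowest for 3 of 9 (Atf4, Ddit3 and Ppp1r15a; 24.5% of all tested genes). Anti-PD-1 library 2 was the lowest for 5 of 9 (Asns, Atf5, Gdf15, Psat1 and Trib3; 14.6% of all tested genes), and anti-IgG library 3 the highest for 5 of 9 (Atf4, Atf5, Ddit3, Gdf15 and Ppp1r15a; 20.6%). The SD of log2 CPM within anti-PD-1 was 1.39 for Gdf15, 1.09 for Asns and 0.79 for Trib3, against a median of 0.26 over all tested genes. Within anti-IgG it was 1.30 for Gdf15, 0.26 for Asns and 0.07 for Trib3, against a median of 0.28. Gdf15 was thus variable in both groups, and Asns and Trib3 among anti-PD-1 libraries. Whether this spread differed between groups was not tested.

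**Figure D2:**
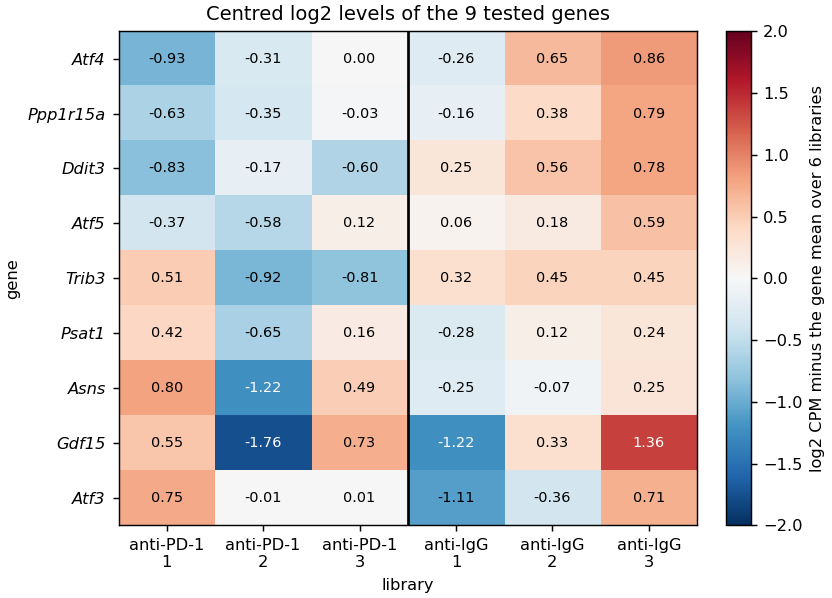
Log2 CPM of the 9 tested genes minus each gene's mean over the 6 libraries (colour and printed values; rows are genes, columns are the 3 anti-PD-1 and then the 3 anti-IgG libraries). Atf4 ranges from -0.93 in anti-PD-1 library 1 to 0.86 in anti-IgG library 3, and Ppp1r15a from -0.63 to 0.79 in the same libraries; Gdf15 has the widest span, -1.76 in anti-PD-1 library 2 to 1.36 in anti-IgG library 3.

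Among the 12176 genes whose mean log2 CPM reached 1, those whose course over the 6 libraries was most like that of Atf4 were Dynlt1c (a dynein light chain gene, root mean square difference 0.0912), Tpm2 (beta-tropomyosin, 0.0922) and Rtl8c (0.0926). Their log2 fold changes were -1.02, -0.84 and -1.02 (edgeR adjusted p = 0.0889, 0.0905 and 0.0879), so none passed, as for Atf4. In this order Ppp1r15a stood at position 51, Ddit3 at 727, Atf5 at 1041 and Gdf15 at 11022. Ppp1r15a, Ddit3 and Atf5 thus stood in the nearer part of this order of 12176 genes, though many genes that are not members stood before them. The remaining members stood from position 5945 (Psat1) to 11022 (Gdf15).

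Over all genes, the log2 fold change increased with gene length. With the tested genes ordered by length into 10 classes of equal size, the median log2 fold change was -0.81 in the shortest class (57 to 1407 bp). In the second (1408 to 2150 bp), which holds Ddit3, Atf5, Gdf15 and Trib3, it was -0.53, and in the third (2151 to 2799 bp), which holds Atf4, Atf3 and Asns, it was -0.34. In the longest class it was 0.45. Atf5 (-0.55) was thus close to the median of genes of its length, Ddit3 (-1.07), Atf4 (-0.85) and Ppp1r15a (-0.71, against -0.16 in its class) were below it, and Atf3 (0.36) and Asns (0.26) were above it. The source of the length trend was not tested.

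**Figure D3:**
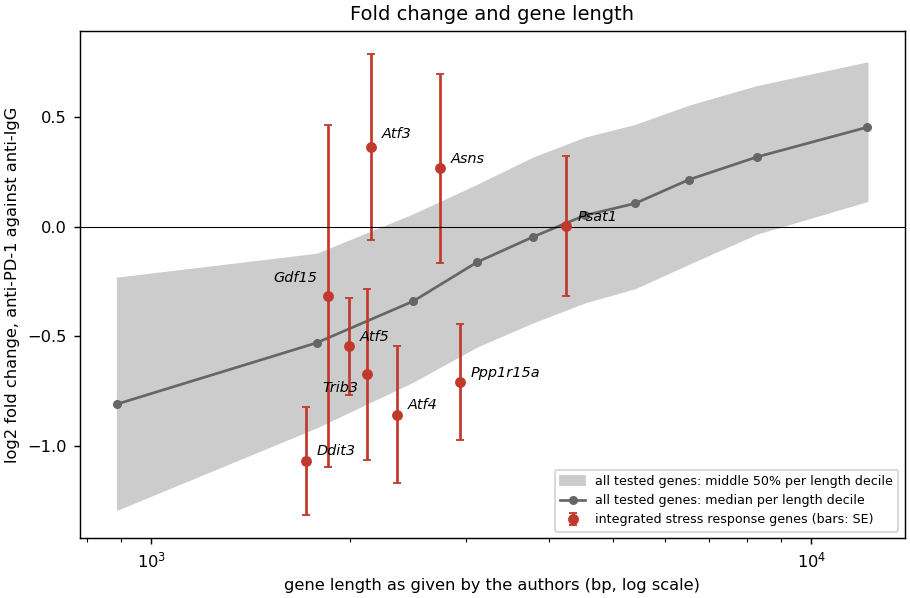
Log2 fold change, anti-PD-1 against anti-IgG (vertical axis), against the authors' gene length in bp (horizontal log axis): the grey line and band are the median and middle 50% of all tested genes in 10 length classes, and red points are the 9 tested members with SE bars. The median runs from -0.81 in the shortest class to 0.45 in the longest, and Ddit3 and Atf4 lie below it while Atf3 and Asns lie above.

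After each library's trend of log2 CPM with gene length was removed, none of the 9 members passed by edgeR, and 1 had an unadjusted p under 0.05, while 10.3% of all tested genes passed and 29.1% had an unadjusted p under 0.05. The log2 fold change of Ddit3 became -0.55 (SE 0.22, edgeR adjusted p = 0.120) and that of Atf4 -0.51 (SE 0.27, adjusted p = 0.234). Ppp1r15a gave -0.50 (SE 0.24, adjusted p = 0.193), and Atf5 gave -0.10 (SE 0.20, adjusted p = 0.782). A second version, chosen after the data were seen, removed the trends with coding and 3′ UTR length of the transcript. It left 5.67% of all tested genes past the threshold and none of the members, of which 0 had an unadjusted p under 0.05, against 24.8% of all tested genes. In that version Ddit3 stood at -0.19 (SE 0.20, edgeR adjusted p = 0.606) and Atf4 at -0.25 (SE 0.24, adjusted p = 0.549). The genes above the trend gave values farther above 0: Atf3 was at 0.80 in both versions (SE 0.42, adjusted p = 0.243, for gene length, and SE 0.41, adjusted p = 0.262, for transcript length), and Asns was at 0.52 (SE 0.44, adjusted p = 0.468) and 0.75 (SE 0.46, adjusted p = 0.350). The median over the 9 members was -0.10 with the gene length trend removed and -0.13 with the transcript length trend removed.

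**Figure D4:**
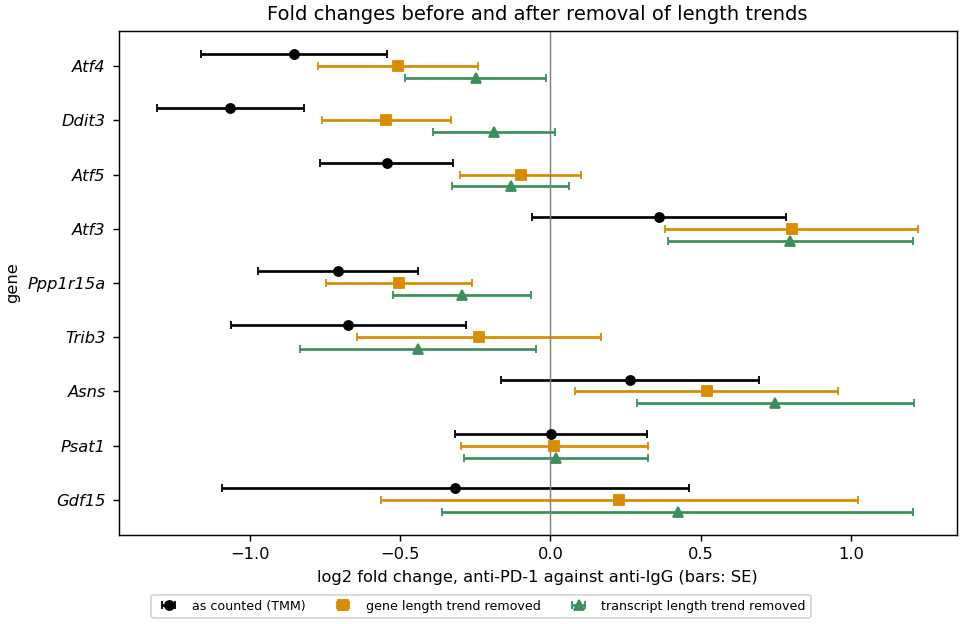
Log2 fold change with SE (horizontal axis, anti-PD-1 against anti-IgG) of the 9 tested members as counted (black circles), with the gene length trend removed (orange squares) and with the transcript length trend removed (green triangles). Ddit3 is at -1.07, -0.55 and -0.19 in these 3 fits, and Atf3 at 0.36, 0.80 and 0.80.

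The rest of the pathway was described with 9 lists of 118 related genes, of which 111 were tested. Of these, 10 were higher with anti-PD-1, 7 were lower and 94 did not pass, so that 15.3% passed against 21.1% of all genes. The median log2 fold change of the 111 was 0.09. The 10 higher genes were all at least 3812 bp long and the 7 lower ones at most 3524 bp. With the gene length trend removed 5 of the 111 passed, and with the transcript length trend removed 3 passed (Eif2s3x and Wars higher, Sars lower). The transcript taken for Wars had a coding length of only 117 bp, on which its value in that fit depends. With 1 library left out at a time, between 3 (without anti-IgG library 2) and 25 (without anti-IgG library 1) of them passed.

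Upstream of Atf4, the list of eIF2 kinases, eIF2 and eIF2B subunits had 14 tested genes with a median log2 fold change of 0.07, of which 1 was higher and 1 lower. Eif2s3x, the gamma subunit of eIF2, rose to 70.3 ± 5.06 CPM with anti-PD-1, against 21.7 ± 5.25 CPM with anti-IgG (SD, n = 3 each; fold change on the log2 scale 1.69, SE 0.21, edgeR adjusted p = 0.00224). It stayed past the threshold in each of the 6 fits that left out a library and with either length trend removed (log2 fold change 1.49, adjusted p = 0.00482, for transcript length). Its near-identical copy on the Y chromosome, Eif2s3y, had 34.8, 47.5 and 43.6 CPM in anti-PD-1 hearts and 49.9, 37.4 and 31.9 CPM in anti-IgG hearts, overlapping between groups, and the split of reads between the copies depends on the authors' mapping. Eif2b1, the alpha subunit of the exchange factor eIF2B, fell to 14.9 ± 2.22 CPM with anti-PD-1, against 25.1 ± 3.44 CPM with anti-IgG (fold change on the log2 scale -0.75, SE 0.20, edgeR adjusted p = 0.0251), a call that held in 2 of the 6 fits without a library and was lost with either length trend removed (adjusted p = 0.113 for gene length and 0.0951 for transcript length). The 4 kinases did not pass.

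Among the amino acid genes, none of 12 tested enzymes of serine, one-carbon and amino acid metabolism passed by edgeR, DESeq2 or limma-voom, 1 had an unadjusted p under 0.05, and their median log2 fold change was -0.22. The smallest p-values were those of Shmt2, mitochondrial serine hydroxymethyltransferase (log2 fold change -0.42, SE 0.19, edgeR adjusted p = 0.132), and Cth, cystathionine gamma-lyase (-1.08, SE 0.50, adjusted p = 0.137). Of 7 tested amino acid transporters 2 were higher: Slc38a2, a neutral amino acid carrier, at 545 ± 193 CPM in anti-PD-1 hearts and 298 ± 68.7 CPM in anti-IgG hearts (fold change on the log2 scale 0.87, SE 0.28, edgeR adjusted p = 0.0450), and Slc7a1, the cationic amino acid carrier, at 50.2 ± 12.3 CPM in the anti-PD-1 group and 31.3 ± 1.81 CPM in the anti-IgG group (0.68, SE 0.20, adjusted p = 0.0340). Their calls held in 1 (Slc38a2) and 3 (Slc7a1) of the 6 fits without a library, and in neither fit with a length trend removed; the list's median was 0.55. None of the 16 cytosolic tRNA synthetases passed by edgeR or limma-voom, 2 passed by DESeq2 and 4 had an unadjusted p under 0.05; Eprs (0.50, SE 0.17, edgeR adjusted p = 0.0527) and Iars (0.49, SE 0.16, adjusted p = 0.0543) had the smallest p-values, and the median was 0.13.

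Other targets and partners of ATF4 and CHOP moved in both directions: of 16 tested, 2 were higher and 2 lower, with a median log2 fold change of -0.15. Eif4ebp1, an ATF4 target that represses cap-dependent translation, fell to 22.9 ± 6.07 CPM with anti-PD-1, against 48.0 ± 13.4 CPM with anti-IgG (SD, n = 3 each; fold change on the log2 scale -1.07, SE 0.25, edgeR adjusted p = 0.0158). Nupr1, a stress-induced chromatin protein, fell to 3.73 ± 1.60 CPM with anti-PD-1, against 10.3 ± 5.39 CPM with anti-IgG, with overlapping groups (-1.46, SE 0.46, edgeR adjusted p = 0.0481). Ero1l, the oxidase of the endoplasmic reticulum that CHOP induces, rose to 31.8 ± 8.54 CPM with anti-PD-1, against 17.7 ± 4.16 CPM with anti-IgG (0.84, SE 0.24, edgeR adjusted p = 0.0336), and Vldlr, the very low density lipoprotein receptor, rose to 390 ± 99.9 CPM with anti-PD-1, against 223 ± 60.7 CPM with anti-IgG (0.81, SE 0.26, adjusted p = 0.0458). Each of these 4 calls held in only 2 of the 6 fits that left out a library and in neither length-corrected fit.

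The other arms of the unfolded protein response in the endoplasmic reticulum had 18 tested genes, of which 4 were higher and 1 lower, with a median log2 fold change of 0.24. The sensors Atf6 and Ern1 led the list. Atf6, the membrane-bound factor of its own arm, rose to 200 ± 28.4 CPM with anti-PD-1, against 91.9 ± 6.31 CPM with anti-IgG (SD, n = 3 each; fold change on the log2 scale 1.13, SE 0.19, edgeR adjusted p = 0.00608), and passed in each of the 6 fits without a library. Ern1, which encodes the IRE1 sensor, rose to 22.6 ± 1.65 CPM with anti-PD-1, against 11.6 ± 2.25 CPM with anti-IgG (0.96, SE 0.20, edgeR adjusted p = 0.0116). Sel1l, of the degradation pathway (0.76, SE 0.18, adjusted p = 0.0163), and Dnajc3, the kinase inhibitor P58IPK (0.71, SE 0.21, adjusted p = 0.0340), were higher, and Manf, a secreted stress factor, was lower (-0.86, SE 0.24, adjusted p = 0.0279). Of the 6 fits without a library Ern1 passed in 5, Sel1l in 3, and Dnajc3 and Manf in 2 each. Among the 13 that did not pass, Hspa5, the chaperone BiP, had a log2 fold change of 0.21 (SE 0.20), Xbp1 of 0.28 (SE 0.18) and the co-chaperone gene Dnajb9 of 0.71 (SE 0.25, adjusted p = 0.0606). Creld2 (-0.73, SE 0.27), Calr (-0.54, SE 0.23), Pdia6 (-0.45, SE 0.20) and Dnajb11 (-0.43, SE 0.20) were below 0, and the rest of the 13 were above 0. With the gene length trend removed 4 of the 18 passed, namely Atf6 (0.79, adjusted p = 0.0235), Ern1 (0.68, adjusted p = 0.0429), Dnajb9 (0.98, adjusted p = 0.0467) and Manf (-0.76, adjusted p = 0.0476). With the transcript length trend removed none of the 18 passed by edgeR, and the lowest adjusted p was 0.0697 (Dnajb9).

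Of the 13 mitochondrial stress sensors, proteases and chaperones, 1 was higher and 3 were lower with anti-PD-1, with a median log2 fold change of -0.13. Hspe1, the small mitochondrial chaperonin, fell to 45.7 ± 5.12 CPM with anti-PD-1, against 86.8 ± 14.8 CPM with anti-IgG (SD, n = 3 each; fold change on the log2 scale -0.93, SE 0.19, edgeR adjusted p = 0.0103), and the proteases Htra2 (-0.94, SE 0.27, adjusted p = 0.0314) and Clpp (-0.77, SE 0.25, adjusted p = 0.0487) were lower too. Yme1l1, an inner membrane protease, was higher (0.69, SE 0.20, edgeR adjusted p = 0.0344). Hspe1 passed in each of the 6 fits without a library, Htra2 and Clpp in 2 each and Yme1l1 in 1, but none of the 13 passed with either length trend removed. The log2 fold change of Hspe1 was -0.33 with the gene length trend removed, and turned to 0.14 with the transcript length trend removed. In the latter fit Clpp was at -0.073, Htra2 at -0.47 and Yme1l1 at 0.35.

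Of 7 receptor and co-receptor genes for FGF21 and GDF15, 4 had enough reads to be tested and none passed by edgeR, DESeq2 or limma-voom, with 1 unadjusted p under 0.05 and a median log2 fold change of 0.24. Fgfr1 was at 0.39 (SE 0.17, edgeR adjusted p = 0.126) and Fgfr2 at 0.73 (SE 0.65, adjusted p = 0.445), and Gfral had 0 reads in every library. None of the 11 immediate early genes passed by these 3 tools either, with 1 unadjusted p under 0.05 and a median of 0.08; Zfp36 was at -0.62 (SE 0.27, edgeR adjusted p = 0.120) and Nr4a1 at 0.56 (SE 0.33, adjusted p = 0.234).

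**Figure D5:**
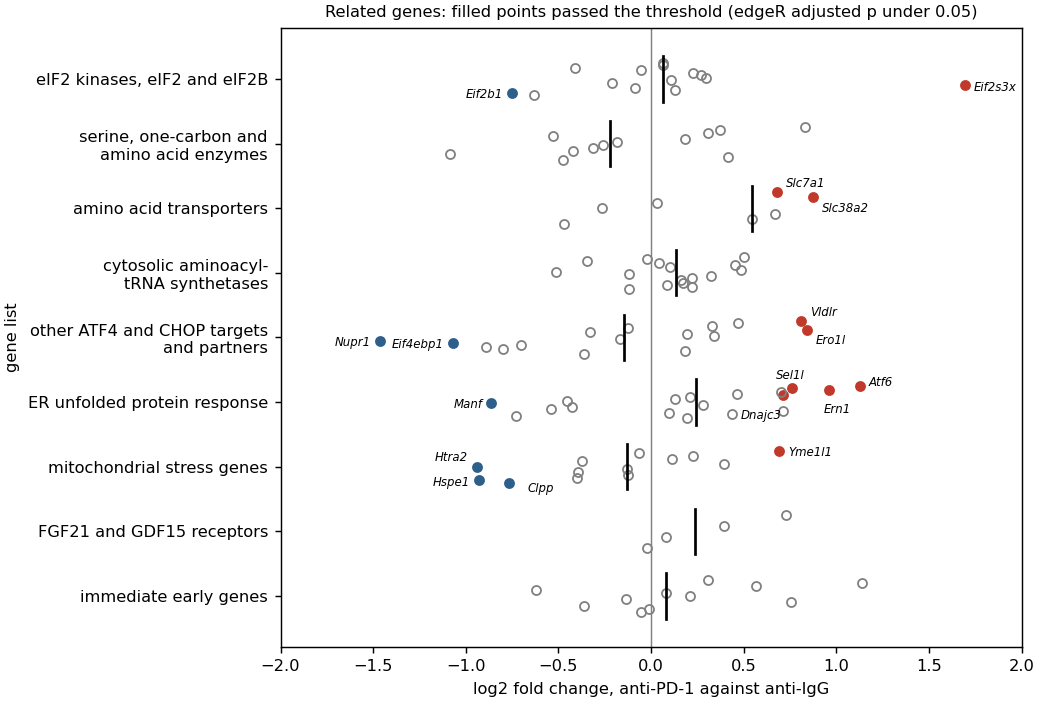
Log2 fold change, anti-PD-1 against anti-IgG (horizontal axis), of the 111 tested related genes in 9 lists (rows); filled named points passed edgeR's test (red higher, blue lower), open points did not, and black ticks are list medians. The medians lie between -0.22 (serine, one-carbon and amino acid enzymes) and 0.55 (amino acid transporters), and Eif2s3x is farthest out at 1.69.

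The libraries held 18063344 to 21093163 counts each, 28.9 to 39.3% of them from mitochondrially encoded genes. Cardiomyocyte markers were abundant. The 3 atrial markers summed to 0.449 to 0.965 CPM with anti-PD-1 and 0.922 to 2.20 CPM with anti-IgG, and the 3 lung markers to at most 0.268 CPM. The 6 cardiomyocyte markers summed to 16388, 28886 and 19596 CPM in the anti-PD-1 libraries, against 25210, 28369 and 33250 CPM in the anti-IgG libraries. This sum was lowest in anti-PD-1 library 1, where Atf4, Ddit3 and Ppp1r15a were lowest and Asns, Atf3, Psat1 and Trib3 were highest. Of these 6 markers Ryr2 was higher past the threshold with anti-PD-1, and Tnnt2, Myl2 and Tnni3 were lower. With the gene length trend removed 3 of the 6 passed, and with the transcript length trend removed 0 did. The median log2 fold change of the 6 was -0.71 as counted and -0.27 with the transcript length trend removed. The 3 liver markers summed to 0.480 to 1.45 CPM with anti-PD-1 and to 103, 25.6 and 1.00 CPM in anti-IgG libraries 1, 2 and 3, and the 4 B cell markers to 0.750 to 1.63 CPM with anti-PD-1 and 3.30 to 6.61 CPM with anti-IgG. Among the other markers, Adgre1 of macrophages was higher past the threshold (log2 fold change 0.97, edgeR adjusted p = 0.0185, kept with either length trend removed). Lower past it were Trac of T cells (-1.32, adjusted p = 0.0471), Kcnj8 of pericytes (-0.64, adjusted p = 0.0242), Cd79a (-3.91, adjusted p = 0.0144) and Cd79b (-2.12, adjusted p = 0.0225) of B cells and Ttr of liver (-3.84, adjusted p = 0.0183). Of the 4 T cell markers only Trac had enough reads to be tested. Those 4 summed to just 1.39 to 2.09 CPM with anti-PD-1 and 2.51 to 3.69 CPM with anti-IgG. The other 3 macrophage markers did not pass, and the 4 together overlapped between groups (164, 146 and 150 CPM with anti-PD-1, and 104, 162 and 141 CPM with anti-IgG). The other 3 pericyte and smooth muscle markers did not pass, and the sums of that list overlapped too. With either length trend removed 1 B cell marker passed, and none of the T cell, pericyte and smooth muscle or liver markers. The part of these differences in the values of the stress response genes was not tested.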

How the data were processed

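Left ventricles of 2 groups of 3 libraries were sequenced as mRNA (NEBNext Ultra kit, per the labels' protocols). The deposited counts are raw reads per gene, listed with the authors' gene lengths; featureCounts and mm10 are named in the submitters' processing notes, while neither the aligner nor the use of strand is given in those sources. The deposited FPKM are the authors' own, and served for levels between genes and for 2 alternatives. Counts were fitted with edgeR 4.0.16 in R 4.3.3 over the whole table (filterByExpr, TMM, quasi-likelihood with robust=TRUE, no covariate), with Benjamini-Hochberg adjustment over 14807 genes and a threshold of 0.05. CPM are TMM-scaled, and an SE is the log2 fold change divided by the square root of F. Genes sharing bases with a neighbour were found in GENCODE M21.

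The length trends were natural splines (5 degrees of freedom) of each library's log2 CPM, entered as offsets. Alternatives were RLE and upper quartile scaling, no filter and a stricter one (1 CPM in 3 libraries), DESeq2 1.42.0, limma-voom (limma 3.58.1), limma-trend on log2 FPKM with pseudocounts of 1 and 0.1, robust=FALSE, a replicate block, no mitochondrially encoded or haemoglobin genes, the length trends, and each library left out in turn. The members, the lists and the rule for named genes were chosen with earlier results of these data known. By that rule all members were named, in each list the 2 tested genes with the smallest p and those that passed, and the 3 genes nearest to Atf4. Hspa5, Xbp1, Dnajb9, Creld2, Calr, Pdia6, Dnajb11, Gfral, Sars, Wars and Eif2s3y were named after their values were seen. Promoter sequences are RefSeq's (13 windows for the 10 genes, all matched by symbol).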

Additional observations from a re-analysis of the deposited data

How the results depend on the processing

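Under 19 alternatives, 144 of the 171 values of the 9 tested genes kept their direction and their side of the threshold, 5 lost the call, 9 gained it and 13 turned sign. Ddit3 was the single call with RLE and upper quartile scaling, the stricter filter, limma-voom, both FPKM fits, robust=FALSE and without mitochondrially encoded and haemoglobin genes. Without a count filter 3 genes passed (Atf4, Ddit3 and Ppp1r15a), with DESeq2 2 (Atf4 and Ddit3), and 0 with either length trend removed. With 1 library left out, 0 to 3 of the 9, 532 to 3646 of all tested genes and 3 to 25 of the 111 related genes passed; over all genes, 3118 passed with all libraries, and the low counts came on leaving out anti-PD-1 library 1 (969), anti-PD-1 library 3 (1766), anti-IgG library 2 (532) and anti-IgG library 3 (1564). Of all tested genes 1526 passed with the gene length trend removed and 840 with the transcript length trend removed, and of the related genes 5 and 3; limma-trend on log2(FPKM + 1) and on log2(FPKM + 0.1) called 10 related genes each, against 17. The cause of these shifts was not tested.

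With the replicate number as a block 4 members passed (Atf4, Atf5, Ddit3 and Ppp1r15a) and 3367 of all tested genes. The labels used here do not say whether the numbers pair the samples. Deviations of same-numbered libraries correlated at 0.12, -0.14 and 0.21. Anti-PD-1 libraries 1 and 3 correlated best with the anti-IgG library of their own number, and anti-PD-1 library 2 with anti-IgG library 1 (0.18). So few correlations cannot decide whether the samples were paired.

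Signs turned for 3 genes near 0 or with wide spread. Psat1 was at -0.085 with upper quartile scaling, -0.011 with the stricter filter, -0.040 with limma-voom, -0.022 on log2(FPKM + 0.1) and -0.043 with the replicate block, and ranged from -0.23 to 0.28 with 1 library left out. Gdf15 was at 0.23 and 0.42 with the gene length and the transcript length trend removed, and ranged from -0.75 to 0.47. Asns ranged from -0.11 to 0.69. Depth limits Fgf21 most among the members, with at most 8 reads in a library.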
